A study of Mus musculus with 6 samples.

Results

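Expression of the BMP, TGF-beta and activin signalling genes was examined in sorted mouse hair follicle cells. The set held 54 genes chosen by name: 13 ligands, 11 receptors, 8 extracellular or membrane antagonists, 4 latent TGF-beta binding proteins, 6 signalling SMADs, 7 intracellular brakes and 5 targets. Of these, 51 were measured well above background on at least 3 of 6 microarrays and were tested, among 17848 genes tested in all. Gdf10, a secreted family member, Bambi, a decoy receptor, and Smad6, an inhibitory SMAD, did not reach that level and were not tested. The arrays are 1-colour Agilent arrays that carry 1 RNA sample each.

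Male mice were depilated, and the skin was then treated with the carcinogen DMBA (7,12-dimethylbenz[a]anthracene) or with acetone alone, the vehicle. After 3 days, epidermal cells bright for a keratin 15 EGFP reporter, high in surface integrin alpha 6 and without surface Sca1 were sorted as stem cells and hair germ of the follicle, in the words of the labels. The sort therefore mixes the stem cells of the bulge with those of the hair germ, and the strain, the age and the DMBA dose are not given in the sources used here. Each group held 3 samples, which the series text says came from different mice. In RNA from such a mixed sort, fewer cells of a type and less RNA per cell cannot be told apart.

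Ligands of this family bind pairs of type I and type II receptor kinases, which phosphorylate SMAD proteins. BMP ligands act through SMAD1, SMAD5 and SMAD9, TGF-beta and activin act through SMAD2 and SMAD3, and both branches share SMAD4. In the resting hair follicle, BMP signals keep stem cells quiescent, while BMP antagonists and TGF-beta2 from the dermal papilla help the hair germ to start a new hair cycle.

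The largest differences with separate groups were in 5 secreted proteins and 1 nuclear protein, and none passed a test over all genes. Transcripts of the ligands Tgfb1 and Bmp2 were 4.02-fold and 2.8-fold higher after DMBA, those of the matrix protein Ltbp2 2.69-fold higher and those of the activin antagonist Fst 1.76-fold higher, all at an unadjusted p under 0.05. Transcripts of Fstl1, a secreted follistatin-like protein, were 1.98-fold lower after DMBA and those of Id4, a helix-loop-helix protein, 2.69-fold lower. The receptors, the intracellular brakes and the signalling SMADs had no member at that p (0 of 11, 0 of 6 and 0 of 6 tested). Only 2.73% of all genes tested were higher and 2.49% lower at that p, so a count of 0 in lists this short says little about a role. Limma called 0 of 17848 genes at an adjusted p under 0.05, and the smallest adjusted p of a member was 0.581.

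At an unadjusted p under 0.05, 4 of 51 members were higher after DMBA (7.84%), where 2.73% of all genes tested were higher, and 2 were lower (3.92%), where 2.49% of all genes were lower. The 3 DMBA values lay above the 3 vehicle values in 7 members (13.7%), against 4.88% of all genes, and below them in 5 members (9.8%), against 5.17% of all genes. An exact permutation test of 3 against 3 samples cannot give a two-sided p below 0.1. The median log2 fold change of the members was 0, against -0.01 over all genes, with 25 members above 0 and 26 below. Without DMBA 3 the counts were 2 higher and 0 lower, beside 2.74% and 2.39% of all genes. With arrays scaled to their median, 3 members were higher and 4 lower, and the shares of all genes also moved, to 2.26% higher and 3.32% lower.

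**Figure D1:**
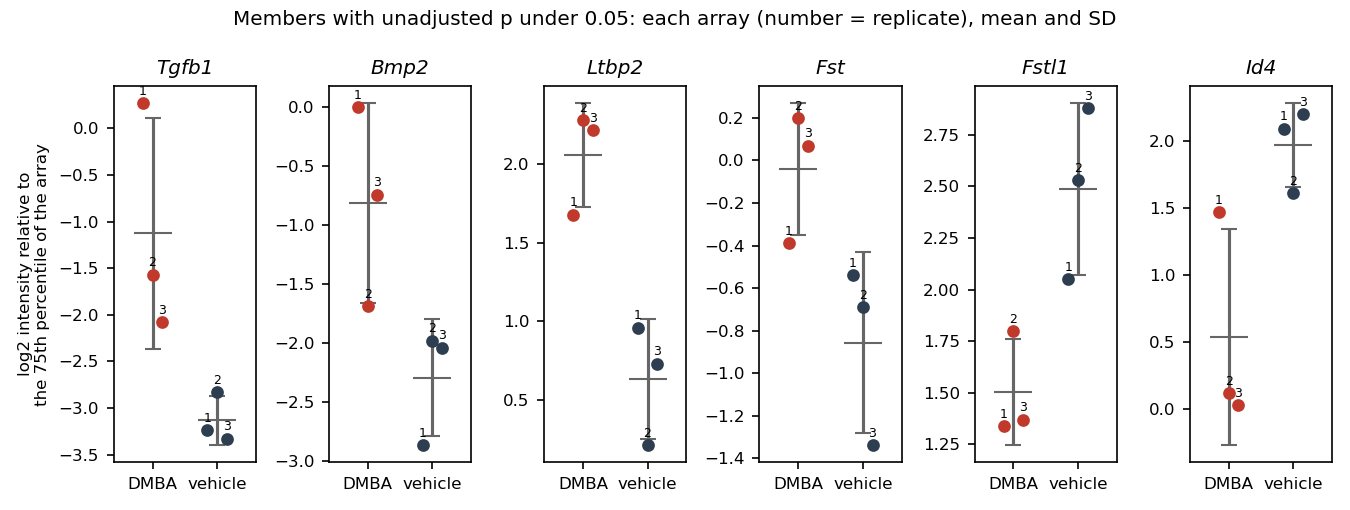
Level of the 6 members with an unadjusted p under 0.05, as log2 intensity minus the array's own log2 75th percentile, with a separate vertical axis for each gene. Points are single arrays numbered by replicate, and bars give the mean and SD of 3 arrays. DMBA lies above vehicle for Tgfb1, Bmp2, Ltbp2 and Fst and below it for Fstl1 and Id4, with no overlap in any of the 6.

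The bases upstream of the start sites are shown for the members of that group of 6 found in a RefSeq promoter table, to show whether letters of known SMAD elements stand there. Each line gives the 250 bases before the start site, 5′ to 3′ on the strand of the gene. Capitals mark CAGAC or its reverse complement GTCTG, the short SMAD element, and GGCGCC, a GC-rich element bound by SMADs, which reads the same on both strands.
Tgfb1 (GRCm38.p6, chr7:25686752-25687001, plus strand): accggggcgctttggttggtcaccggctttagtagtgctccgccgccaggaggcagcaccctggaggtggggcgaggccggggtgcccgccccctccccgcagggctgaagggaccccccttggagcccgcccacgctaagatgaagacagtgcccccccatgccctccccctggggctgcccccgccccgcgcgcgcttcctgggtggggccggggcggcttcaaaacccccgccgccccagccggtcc
Ltbp2 (GRCm38.p6, chr12:84876492-84876741, minus strand): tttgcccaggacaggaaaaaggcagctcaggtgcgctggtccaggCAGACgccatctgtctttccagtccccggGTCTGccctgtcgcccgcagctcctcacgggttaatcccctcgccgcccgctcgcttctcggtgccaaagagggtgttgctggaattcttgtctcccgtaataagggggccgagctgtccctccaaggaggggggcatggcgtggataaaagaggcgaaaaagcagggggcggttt
Fstl1 (GRCm38.p6, chr16:37776805-37777054, plus strand): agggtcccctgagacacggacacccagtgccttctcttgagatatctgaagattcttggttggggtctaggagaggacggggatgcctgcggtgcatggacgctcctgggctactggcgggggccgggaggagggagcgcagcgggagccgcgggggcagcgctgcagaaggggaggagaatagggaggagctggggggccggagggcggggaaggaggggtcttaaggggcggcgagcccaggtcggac
Id4 (GRCm38.p6, chr13:48260866-48261115, plus strand): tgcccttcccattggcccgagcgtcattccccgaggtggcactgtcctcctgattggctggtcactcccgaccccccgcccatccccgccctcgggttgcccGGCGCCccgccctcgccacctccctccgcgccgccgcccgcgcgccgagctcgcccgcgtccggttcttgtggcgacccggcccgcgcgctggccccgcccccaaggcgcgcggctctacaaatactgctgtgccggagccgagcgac

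The Ltbp2 window held 2 matches to the short element, and the Id4 window held 1 match to the GC-rich element. The windows of Tgfb1 and Fstl1 held 0 matches to either. The short element occurred in 42.1% of the 27025 promoters in the table and in 20 of the 40 members found there (50%). The GC-rich element occurred in 9.54% of all promoters and in 11 of the 40 members (27.5%). The base composition of the promoters was not compared. A match is a description of the letters and does not show that a SMAD binds there.

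Among the 12 ligands tested, 7 had a log2 fold change above 0 and 5 below, with a median of 0.05 and a range from -0.48 to 2.01. With arrays scaled to their median, 6 lay above 0 and 6 below. The TGF-beta ligands are secreted in a latent form and activated outside the cell. Tgfb1 encodes TGF-beta1, the most widely made of them. Its level, on the same log2 scale, was 0.27, -1.57 and -2.08 in DMBA 1 to 3, against -3.24, -2.83 and -3.33 in vehicle 1 to 3. The groups did not overlap, and the DMBA arrays were far more spread (SD 1.23, against 0.26 in vehicle; n = 3 each). The log2 fold change was 2.01 (SE 0.61; limma adjusted p = 0.834), and without DMBA 1 it was 1.31. The probe for Tgfb1 is printed on 10 spots of each array, whose SD within an array was between 0.06 and 0.14.

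Tgfb2, whose product acts on the hair germ, was read by 2 probes that differed. The brighter probe read -0.98, -0.65 and -1.47 in DMBA 1 to 3, against -1.21, -0.86 and -2.1 in vehicle 1 to 3, so the groups overlapped (log2 fold change 0.36, SE 0.40; adjusted p = 1). The other probe read -0.38, -1.07 and -1.21 in DMBA, against -2.45, -2.69 and -2.29 in vehicle. On it the groups did not overlap, with a log2 fold change of 1.59 (SE 0.30), and it did not pass over all probes (adjusted p = 0.587). Without vehicle 3 the value on the brighter probe was 0. Tgfb3, the remaining isoform, had a log2 fold change of 0.02 (95% interval from -0.59 to 0.64).

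Bmp2 encodes a ligand that the skin makes at high levels in part of the resting phase of follicles. It lay at 0, -1.69 and -0.74 in DMBA 1 to 3, against -2.87, -1.98 and -2.04 in vehicle 1 to 3. The groups did not overlap, although DMBA 2 stood close to the vehicle arrays. The log2 fold change was 1.49 (SE 0.49; adjusted p = 0.88). Bmp4, its closest relative, lay at 1.17, 1 and 0.03 in DMBA, against 0.97, -1.59 and -0.27 in vehicle. Here the groups overlapped, because vehicle 1 stood with the DMBA arrays. The log2 fold change was 1.03 (SE 0.68; adjusted p = 1), and it was 0.38 without vehicle 2 and 1.67 without vehicle 1.

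Bmp6, a ligand linked to the quiescence of bulge stem cells, had a lower value after DMBA. It lay at -1.91, -1.7 and -2.13 in DMBA 1 to 3, against -1.14, -1.19 and -1.99 in vehicle 1 to 3, and vehicle 3 stood among the DMBA arrays. Its log2 fold change was -0.47 (SE 0.31; adjusted p = 1). Bmp5 had a value of -0.48, Bmp7 -0.01 and Bmp8a 0.11, each with an adjusted p of 1. The activin subunit genes Inhba and Inhbb had values of -0.1 and -0.17, and Gdf15, a distant family member induced by stress, 0.08. The interval of Inhba ran from -1.53 to 1.34, so a difference of that size was not resolved with 3 arrays a group.

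**Figure D2:**
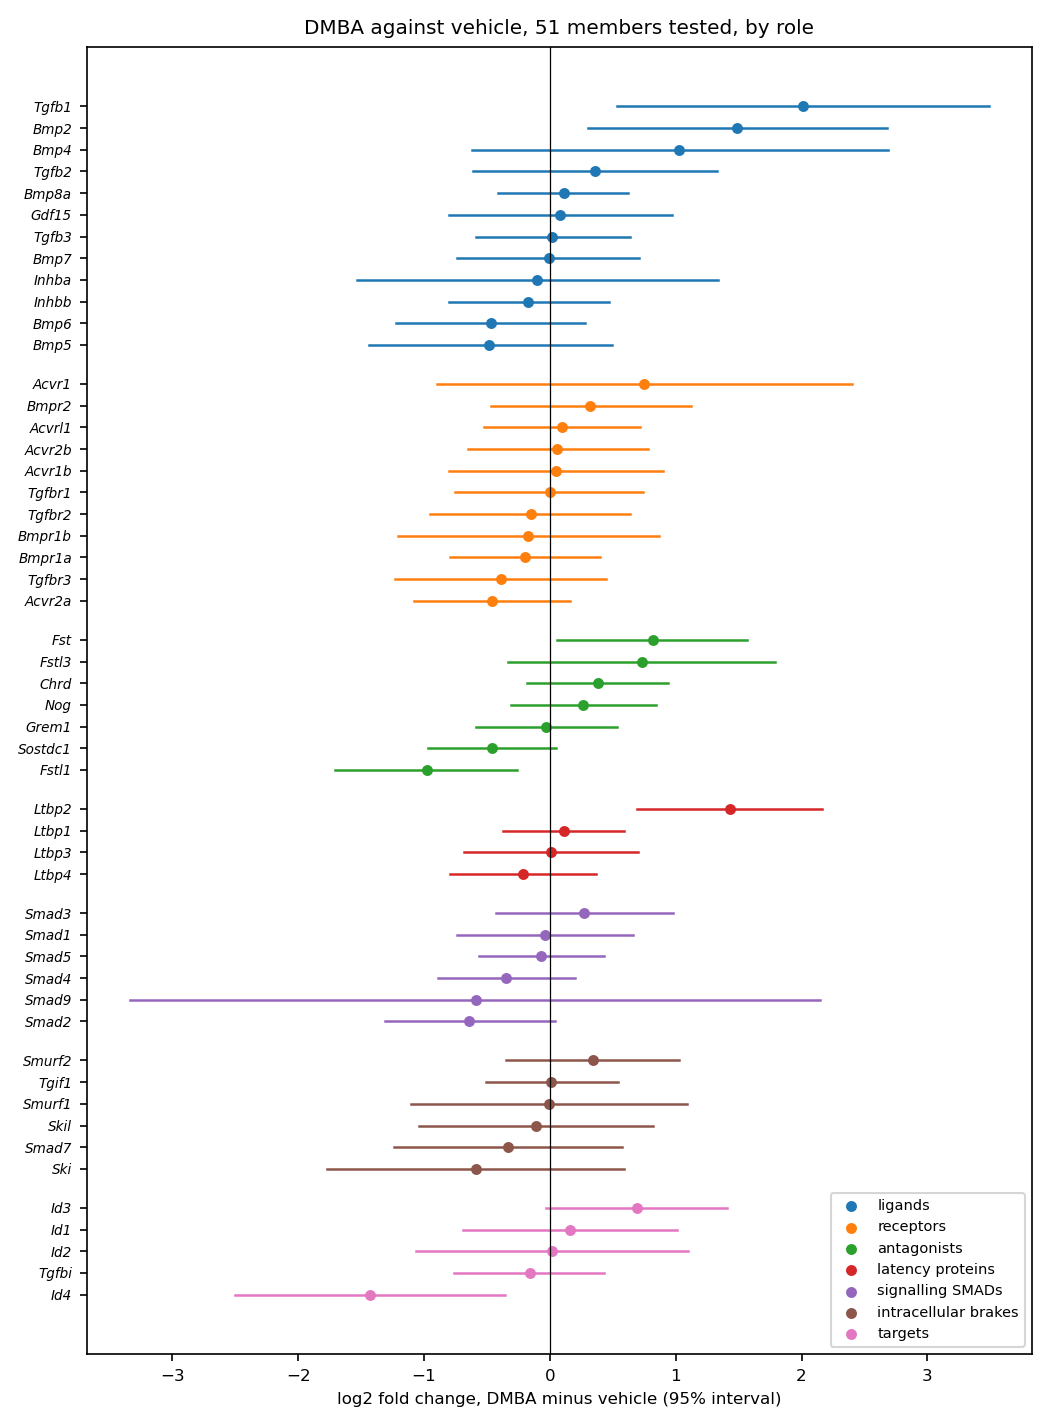
Log2 fold change of the 51 members tested, DMBA minus vehicle, with its 95% interval from limma on the horizontal axis and the genes grouped by role down the page. The intervals of Tgfb1, Bmp2, Fst and Ltbp2 lie above 0 and those of Fstl1 and Id4 below 0, before any adjustment for the number of genes.

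The 11 receptors were all tested, and their log2 fold changes lay between -0.46 and 0.75 with a median of 0. In none did the groups separate (0 above, 0 below), where 4.88% of all genes lay above and 5.17% below. The smallest adjusted p was 0.99. For Bmpr1a, the type I BMP receptor that holds bulge stem cells at rest, the value was -0.2 (95% interval from -0.79 to 0.4). Its 3 DMBA arrays were within 0.98 to 1.02. Bmpr2, the type II BMP receptor, had a value of 0.32. Bmpr1b, another type I receptor, had -0.17, and passed the background test on 1 array of the DMBA group and 3 of the vehicle group.

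For the TGF-beta receptors Tgfbr1 and Tgfbr2 the values were 0 and -0.15, and the intervals ran from -0.75 to 0.74 and from -0.95 to 0.64. Tgfbr3 encodes betaglycan, a coreceptor that presents TGF-beta2, and had a value of -0.39. The activin receptors Acvr1b, Acvr2a and Acvr2b had values of 0.05, -0.46 and 0.06, and Acvrl1, best known from endothelium, 0.1. Acvr1, a type I receptor for BMPs, had the highest value, 0.75, with DMBA 1 far above the rest. It lay at 2.37, 0.68 and 0.29 in DMBA 1 to 3, against 0.9, -0.66 and 0.86 in vehicle 1 to 3, and its other probe gave 0.01.

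**Figure D3:**
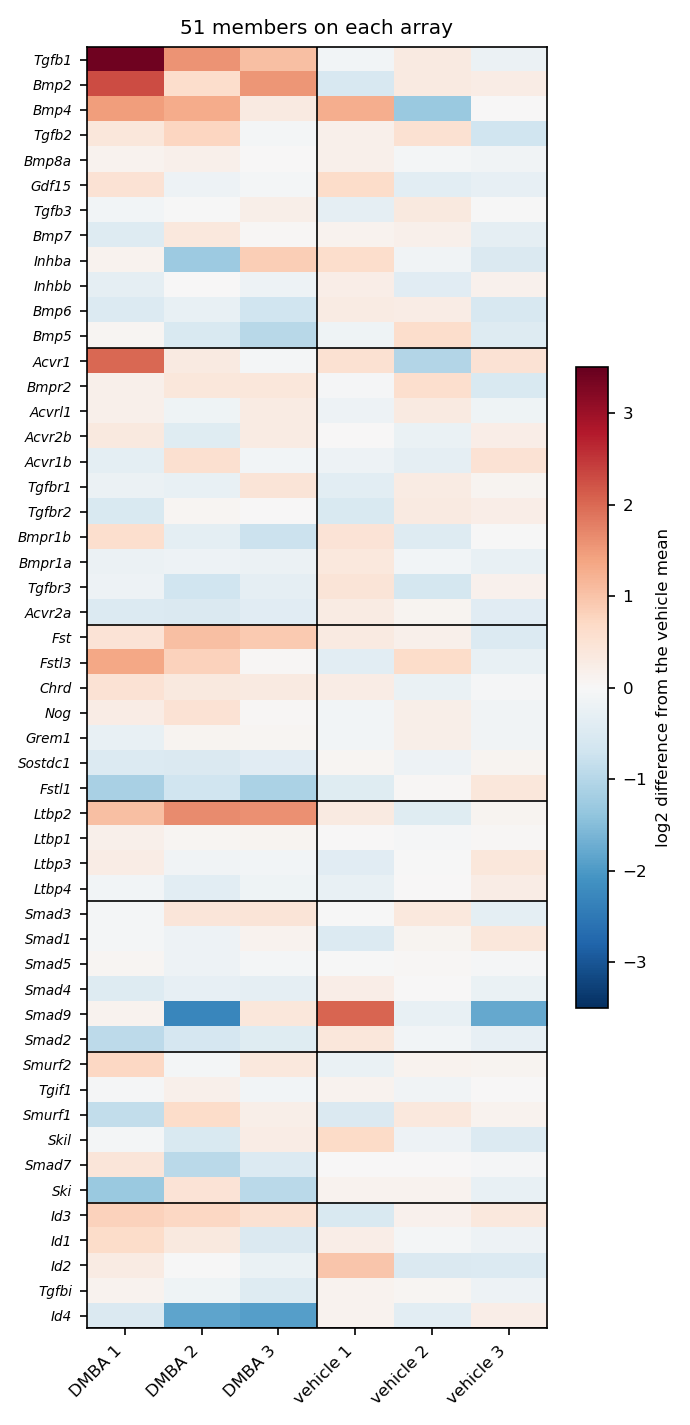
Each of the 51 members tested on each array, as the log2 difference from the mean of the 3 vehicle arrays (red above, blue below), with DMBA arrays left of vehicle arrays and lines between roles. Tgfb1, Bmp2, Fst, Ltbp2 and Id3 are red and Fstl1 and Id4 blue on all 3 DMBA arrays, while most receptors and brakes show no common colour.

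Among the 7 antagonists tested the values spread to both sides, from -0.98 to 0.82, with a median of 0.26. Fst encodes follistatin, which binds activins. It lay at -0.39, 0.2 and 0.07 in DMBA 1 to 3, against -0.54, -0.69 and -1.34 in vehicle 1 to 3. The groups did not overlap, but DMBA 1 stood close to vehicle 1. The log2 fold change was 0.82 (SE 0.31; adjusted p = 0.938). Fstl1, a secreted glycoprotein that binds BMP4 in mouse lung, lay at 1.34, 1.8 and 1.37 in DMBA, against 2.05, 2.53 and 2.88 in vehicle. All DMBA arrays lay below all vehicle arrays, with a log2 fold change of -0.98 (SE 0.30; adjusted p = 0.834). Fstl3, a relative that also binds activins, had a value of 0.73 with overlapping groups (SE 0.44).

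Differences were smaller among the BMP antagonists. Nog encodes noggin, which binds BMP2 and BMP4 and promotes entry into hair growth. It lay at -1.09, -0.84 and -1.3 in DMBA 1 to 3, against -1.44, -1.13 and -1.47 in vehicle 1 to 3, and the groups overlapped (log2 fold change 0.26, SE 0.24; adjusted p = 1). Chrd encodes chordin, another BMP trap, and lay at -1.01, -1.17 and -1.2 in DMBA, against -1.24, -1.73 and -1.54 in vehicle. Its groups did not overlap, by a margin of a few hundredths between DMBA 3 and vehicle 1 (log2 fold change 0.38, SE 0.23; adjusted p = 0.995). Sostdc1, which inhibits BMP and Wnt ligands, lay at 3.97, 3.96 and 4.07 in DMBA, against 4.54, 4.28 and 4.56 in vehicle. All its DMBA values lay below all vehicle values (log2 fold change -0.46, SE 0.21; adjusted p = 0.969), but its other probe gave -0.15 with overlapping groups. Grem1, the BMP antagonist gremlin, had a value of -0.03 (95% interval from -0.59 to 0.53).

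Latent TGF-beta binding proteins anchor latent TGF-beta in the matrix, except that the product of Ltbp2 does not bind it and belongs to elastic microfibrils. Ltbp2 had the smallest p of all members. It lay at 1.68, 2.28 and 2.22 in DMBA 1 to 3, against 0.96, 0.21 and 0.73 in vehicle 1 to 3. The lowest DMBA array stood well above the highest vehicle array. The log2 fold change was 1.43 (SE 0.30; adjusted p = 0.581), and it lay between 1.22 and 1.62 when each array was left out. Ltbp1 lay at 2.87, 2.76 and 2.79 in DMBA, against 2.71, 2.65 and 2.73 in vehicle. Its groups also did not overlap, but the log2 fold change was 0.11 (SE 0.20; adjusted p = 1). Ltbp3 and Ltbp4 had values of 0.01 and -0.21.

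The 6 signalling SMADs had a median log2 fold change of -0.21, with 5 below 0, where 9147 of all 17848 genes tested were below 0. The count of 5 was the same under each of the 4 other scalings and background corrections of the same arrays. Relative to the vehicle mean, the median of the SMADs overlapped between groups. It was -0.08, -0.24 and 0.03 in DMBA 1 to 3, against 0.1, 0.03 and -0.26 in vehicle 1 to 3. None of the 6 had an unadjusted p under 0.05. Smad2, which carries TGF-beta and activin signals, lay at 0.11, 0.42 and 0.6 in DMBA 1 to 3, against 1.41, 0.91 and 0.72 in vehicle 1 to 3. The groups did not overlap (log2 fold change -0.64, SE 0.28; adjusted p = 0.963). Smad4, the partner of all signalling SMADs, lay at 2.51, 2.68 and 2.64 in DMBA, against 3.18, 2.97 and 2.72 in vehicle. Its groups did not overlap either (log2 fold change -0.35, SE 0.22; adjusted p = 1), and its other probe gave -0.14 with overlap. Smad1 and Smad5 of the BMP branch had values of -0.04 and -0.07. Smad3 had 0.27, and its other probe -0.72. Smad9 had -0.59, with an interval from -3.34 to 2.15, and it was well above background on 2 arrays of each group.

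The brakes inside the cell lay between -0.59 and 0.34, and 0 of the 6 tested separated the groups. Of all genes tested, 4.88% lay wholly above vehicle and 5.17% wholly below. Smad7, an inhibitory SMAD induced by TGF-beta as negative feedback, lay at -2.36, -3.73 and -3.27 in DMBA 1 to 3, against -2.76, -2.77 and -2.82 in vehicle 1 to 3. The vehicle arrays lay within the range of the DMBA arrays (log2 fold change -0.33, SE 0.38; adjusted p = 1). Of the SMAD corepressors, Ski had a value of -0.59, Skil -0.11 and Tgif1 0.01. Smurf1 and Smurf2, ubiquitin ligases that remove receptors and SMADs, had values of -0.01 and 0.34. A dimmer probe of Skil differed in sign from the one in use, with 0.68 (SE 0.23) and no overlap between groups (adjusted p = 0.944 over all probes).

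Id genes are direct targets of BMP signalling, and their products block basic helix-loop-helix factors. Their values lay on both sides of 0. Id1 lay at 0.53, 0.23 and -0.62 in DMBA 1 to 3, against 0.13, -0.17 and -0.3 in vehicle 1 to 3, with overlap (log2 fold change 0.16, SE 0.35; adjusted p = 1). Its sign turned without DMBA 1 (-0.08). Id2 lay at -1.75, -2.04 and -2.26 in DMBA, against -1.07, -2.53 and -2.51 in vehicle. It gave 0.02 (SE 0.45; adjusted p = 1), and its sign turned under other scalings. Id3 lay at 2.21, 2.15 and 1.96 in DMBA, against 0.89, 1.57 and 1.79 in vehicle. All its DMBA values lay above all vehicle values (log2 fold change 0.69, SE 0.30; adjusted p = 0.963).

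Id4 was the target with the largest difference. It lay at 1.47, 0.12 and 0.03 in DMBA 1 to 3, against 2.09, 1.61 and 2.2 in vehicle 1 to 3. All DMBA arrays lay below all vehicle arrays, but DMBA 1 stood close to vehicle 2. The log2 fold change was -1.43 (SE 0.44; adjusted p = 0.854). Tgfbi, a secreted matrix protein named for its induction by TGF-beta, had a value of -0.16 (95% interval from -0.76 to 0.43).

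Several members were read by more than 1 probe, which gives a check of each value within the same arrays. Among 15 further probes of 14 members, 4 gave a sign opposite to the probe in use, and 5 differed from it by more than 0.5 on the log2 scale. The median absolute difference was 0.31. Tgfb2 differed most. Of the 6 members with an unadjusted p under 0.05, none had a further probe above the filter, so their values rest on 1 probe each.

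**Figure D4:**
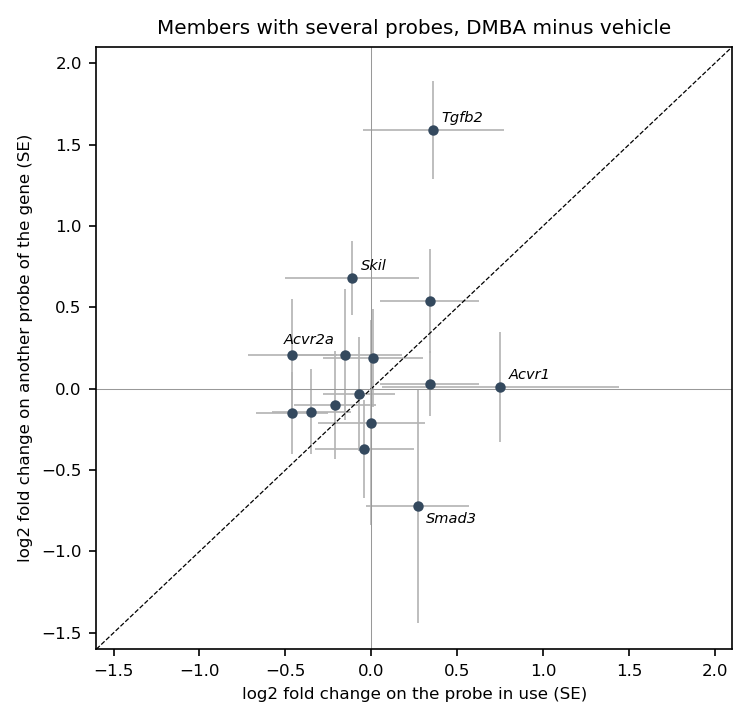
Log2 fold change, DMBA minus vehicle, on the probe in use (horizontal axis) and on each further probe of the same gene (vertical axis), for 14 members, with SE bars and a dashed line of equal values. Tgfb2 stands off the line with 0.36 on one probe and 1.59 on the other, and Skil, Acvr1, Smad3 and Acvr2a also differ by more than 0.5.

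Other genes of the pathway were taken from a fixed list of 86, of which 72 were tested. Their median log2 fold change was 0.04, 3 were higher at an unadjusted p under 0.05 and 1 was lower, and 0 passed over all genes. Without overlap, DMBA lay above vehicle in 7 of the 72 and below it in 4. Over all genes tested, 2.73% were higher and 2.49% lower at that p, and 4.88% lay above and 5.17% below without overlap. The 4 genes at that p follow. Cdkn1a, the cell cycle inhibitor that TGF-beta and p53 induce, lay at 2.42, 2.46 and 2.3 in DMBA 1 to 3, against -0.09, 0.74 and 0.88 in vehicle 1 to 3 (log2 fold change 1.88, SE 0.31; adjusted p = 0.445). Dcn, a matrix proteoglycan that binds TGF-beta, lay at -0.35, -0.39 and -0.21 in DMBA, against -1.64, -2.2 and -1.63 in vehicle (1.51, SE 0.25; adjusted p = 0.445). Ccn2, a secreted protein induced by TGF-beta, lay at 4.26, 4.08 and 3.95 in DMBA, against 3.87, 3.31 and 3.14 in vehicle (0.66, SE 0.27; adjusted p = 0.954). Usp15, a deubiquitinase of the TGF-beta receptor complex, lay at -0.44, 0.01 and 0.22 in DMBA, against 0.97, 0.89 and 0.31 in vehicle (-0.79, SE 0.30; adjusted p = 0.938). In each of these the groups did not overlap. A further probe gave 2.96 (SE 0.31) for Cdkn1a and -1.2 (SE 0.22) for Usp15, also without overlap. Neither passed over all probes (limma adjusted p = 0.305 and 0.555).

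All 10 markers of hair follicle stem cells were measured, among them the sort markers Krt15 and Itga6. At an unadjusted p under 0.05, 0 were higher and 1, Lgr5, was lower (log2 fold change -0.64). Sox9 (-0.5, SE 0.24) also lay below vehicle without overlap, so 2 of the 10 did, against 5.17% of all genes. Beside each marker count here, 2.73% of all genes tested were higher and 2.49% lower at that p. Lgr5 also counts among the 7 hair germ markers, whose summed linear level was 21.9 to 26.4 on DMBA arrays and 25.5 to 35.9 on vehicle arrays. Bright genes weigh most in such a sum. Of the 7, 3 had a log2 fold change above 0 and 4 below. The largest were those of Lef1 (1.51, SE 0.75) and Shh (1.4, SE 0.91), both with overlapping groups. Ly6a, the gene of Sca1, whose protein the sort selected against, lay at 0.29, 0.27 and 0.13 in DMBA 1 to 3, against -0.2, -1.67 and -1.78 in vehicle 1 to 3. It was well above background on all 6 arrays, and the groups did not overlap (log2 fold change 1.45, SE 0.45; adjusted p = 0.854). It was the only one of 9 markers of interfollicular epidermis, infundibulum and sebaceous gland with an unadjusted p under 0.05, and their summed level was 61.4 to 88.3 on DMBA arrays and 61.5 to 85.7 on vehicle arrays. Fibroblasts and dermal papilla cells also make many of these ligands and antagonists. Of 10 markers of those cells, 6 were tested, 1 (Dcn) was higher and 0 lower, and Pdgfra and Sox2 were well above background on no array. Of the 6, 5 had a log2 fold change above 0 and 1 below, with a median of 0.52. Col1a1 (1.29, SE 0.57) also lay above vehicle without overlap, so 2 of the 6 did, against 4.88% of all genes. The summed linear level of the markers tested was between 3.18 and 4.21 on DMBA arrays and between 1.53 and 3.61 on vehicle arrays. Of 8 melanocyte markers, 2 (Mlana and Tyrp1) were higher and 0 lower, against 2.73% and 2.49% of all genes. The summed levels of the 8 ran from 4.14 to 6.75 on DMBA arrays and from 2.95 to 4.46 on vehicle arrays. In Mlana and Tyrp1 the groups overlapped, and Tyrp1 was well above background on 1 vehicle array. Of the 8, 3 had a log2 fold change above 0 and 5 below, with a median of -0.06. Of the leukocyte, endothelium and muscle, and erythroid markers tested (8, 5 and 3), 0 were higher and 0 lower. Their summed levels were 4.01 to 4.97, 6.99 to 8.98 and 0.756 to 5.18 on DMBA arrays. On vehicle arrays they were 3.91 to 8.68, 7.03 to 7.72 and 0.397 to 4.21. Of the 8 leukocyte markers, 1 (H2-Aa) lay below vehicle without overlap, against 5.17% of all genes. The part of any of these cell types in the values of the members was not tested. Across genes, Pearson's r was 0.937 to 0.951 between arrays within a group and 0.934 to 0.948 between the groups. Probes well above background made up 69.3% to 80.9% on DMBA arrays and 77.0% to 83.6% on vehicle arrays. Of the 51 members, 49 were well above background on all 6 arrays.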

How the data were processed

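RNA from 3 DMBA and 3 vehicle samples was labelled with Cy3 and hybridised to 1 array each, per the labels' protocols. The submitters' processing notes name Agilent Feature Extraction 10.7.1.1. The deposited scanner files hold spot intensity, per the file headers, with background already corrected. The deposited series matrix holds intensity on a linear scale with column 75th percentiles of 1.004 to 1.007 and medians from 0.154 to 0.172. It followed the scanner values, the sources used here do not give its scaling step, and it was an alternative only.

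Values are log2 processed intensity minus the log2 of the 75th percentile of the array (1355 to 2274), in R 4.3.3 with limma 3.58.1. Spots with outlier flags were left out (45 probe values missing, 0 of them in members), and 44955 of 55681 probes well above background on 3 or more arrays were kept. Probes were named by RefSeq accession through the GRCm38.p6 annotation (28331 matched). A gene was represented by its brightest kept probe, so levels are not compared between genes. Each gene was tested, DMBA minus vehicle, by lmFit and eBayes of limma (two-sided, without covariates), with Benjamini-Hochberg adjustment over 17848 genes. Intervals are 95% intervals of that fit. The fit was tested on simulated data with known changes. There the adjusted threshold called 2.9% of 68 genes with a log2 change of 1, 31.8% of 66 with 2 and 78.8% of 66 with 4. The other 17648 genes had no change, and noise was drawn independently with each gene's own residual SD. These shares depend on those settings and are not the power of this experiment. The number of arrays limits the precision.

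Values on every array are given for members with an unadjusted p under 0.05 or groups that do not overlap, and for 13 members best known in the follicle, with up to 6 other pathway genes. Acvr1 was added after its values were seen. The members and lists were chosen with earlier results of these data known. Vehicle 1 lay on a slide of its own, scanned apart, so slide as a block equals leaving it out. The planned correction on mean spot signals was run on median signals, since the files used here have no mean signal, an alternative chosen after seeing the data.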

Additional observations from a re-analysis of the deposited data

How the results depend on the processing

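Alternatives were the filter on dim probes, the normalization, the background correction, the probe rule, slide, depth and replicate blocks, and leaving out each array. No member passed the adjusted threshold under any of them. Over all genes, 0 to 1 genes passed when an array was left out (1, Apln, without vehicle 2) and 0 under the others. The count of members higher at an unadjusted p under 0.05 was 2 with a replicate block and 2 to 4 when an array was left out, where 2.86% and 2.61% to 2.99% of all genes were higher. The count lower was 4 with median scaling, 1 with the share of probes above background in the fit, and 0 to 3 when an array was left out, where 3.32%, 3.14% and 2.21% to 4.07% of all genes were lower. With an array left out, 7 to 11 members lay wholly above vehicle and 6 to 8 wholly below, as fewer arrays overlap less often (8.35% to 9.88% of all genes above, 8.85% to 16% below). The median of the members was 0.15 with that share in the fit, where that of all genes was 0.1. With no filter on dim probes, 5.89% of all genes were higher and 2.13% lower.

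Signs turned in 4 of the 19 members examined singly. Tgfb2 was 0 without vehicle 3 (0 to 0.62 over arrays left out) and Id1 -0.08 without DMBA 1 (-0.08 to 0.49). Smad7 was 0.24 with that share in the fit. Id2 was -0.03 with quantile normalization, -0.04 with median scaling and -0.22 to 0.51 with arrays left out. The cause was not tested. The other 15 kept their sign; Tgfb1 ranged from 1.31 to 2.92 and Bmp2 from 1.08 to 2.01. Samples with the same replicate number share only a number: their deviations from the group means correlated at 0.02, -0.02 and 0.06, and the replicate block gave 2 higher members, against 4 without it, and 2 lower members with or without it.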

Other observations

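The 3 members left untested were well above background on fewer than 3 arrays, and only Bambi lay near the floor on every array. Bambi, a decoy receptor that blunts TGF-beta and BMP signals, was well above background on 0 arrays and read -7.8, -7.09 and -7.59 in DMBA 1 to 3, against -8.42, -8.51 and -8.01 in vehicle 1 to 3. The lowest value on any array, from -8.01 to -7.32 in DMBA and from -8.73 to -8.23 in vehicle, differed in the same way between the groups. Gdf10, a BMP relative, was well above background on 0 DMBA arrays and 2 vehicle arrays, with -5.66, -5.96 and -7.46 in DMBA, against -5.09, -2.82 and -7.88 in vehicle. Smad6, which inhibits the BMP branch, was above background on 0 DMBA arrays and 2 vehicle arrays, with -6.22, -7.18 and -6.75 in DMBA, against -4.89, -6.03 and -8.11 in vehicle. In both the groups overlapped.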
